A study of Mus musculus with 2 samples.

Results

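The 10 genes described here mark tissue macrophages and the machinery with which such cells present antigen. C1qa, C1qb and C1qc encode the chains of C1q, the recognition subunit of the classical complement pathway, which macrophages secrete. Mrc1 encodes the mannose receptor, Cd163 the scavenger receptor for haemoglobin bound to haptoglobin, Folr2 the folate receptor beta and Lyve1 a hyaluronan receptor, and all 4 are used as markers of macrophages resident in connective tissue. Lyve1 is also expressed by lymphatic endothelium. H2-Aa and H2-Ab1 encode the alpha and beta chains of the MHC class II molecule I-A, and Cd74 encodes the invariant chain, which occupies the peptide groove of new class II molecules until they meet antigen peptides. Class II molecules are carried by dendritic cells, B cells and some macrophages.

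The genes were chosen by symbol, and all 10 of 10 were found among the 27998 genes of both count tables. Their unique molecular identifiers (UMIs, each standing for 1 captured RNA molecule) were read in immune cells, defined as cells with 5 or more UMIs in all over 4 genes of white blood cells, Tyrobp, Fcer1g, Laptm5 and Ptprc. The remaining cells of each library served as the background. This gate held 189 of 2364 cells in the wild-type library (7.99%, exact binomial 95% interval 6.93 to 9.16%) and 185 of 2592 in the mutant library (7.14%, 6.18 to 8.20%). Near the gate, 6 wild-type and 15 mutant cells had 5 to 7 UMIs over the 4 genes, and 1 and 6 cells had 3 or 4. A gate of 10 UMIs leaves out further cells, and its effect on the results is given at the end.

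Single cells were released enzymatically from fore- and hindlimb tendons of mice at postnatal day 7 (P7). One library was made from mutants in which a floxed Tgfbr2 gene, encoding the type II receptor for TGFβ, was targeted with ScxCre (Tgfbr2;ScxCre). ScxCre is a Cre recombinase driven by the tendon gene Scleraxis. The paper writes the genotype of the mutants as Tgfbr2f/-;ScxCre. By that notation 1 allele was floxed and the other was null in all cells, immune cells included. The other library was made from control pups labelled wild type, although another label of the same library reads Het, for heterozygous. ScxGFP, a transgene that labels tendon, and the Cre reporter Ai14 Rosa26-tdTomato (RosaT) were present in mice of both groups. Each library was a pool of 2 pups, so with 1 library per genotype there was no spread between replicates, no test was run, and genotype and library cannot be told apart. ScxCre acts in tendon cells, and its activity is not uniform before birth. The paper also reports the Cre reporter in some cells that are not tendon cells at this age. The counts could not check the deletion in the cells described here, since reads at the 3′ end of a gene can lie outside the deleted part. Tgfbr2 had 49 of 511362 UMIs in wild-type and 31 of 360825 in mutant immune cells, so the raw counts also differ by depth. Intervals below are 95% intervals that cover counting error only.

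The immune cells were mostly macrophages by their markers. With 3 or more UMIs over the macrophage marker list without Lyz2, 183 of 189 wild-type and 176 of 185 mutant immune cells counted as macrophage marker cells. Cells with 5 or more UMIs over the mast cell list numbered 3 and 4, over the neutrophil list 0 and 2, over the dendritic cell list 0 and 3, over the T and NK cell list 1 and 0, and none carried B cell markers at this level. The gate rested mostly on Tyrobp and Fcer1g, with 1608 and 1780 UMIs in wild-type immune cells, beside 365 of Laptm5 and 28 of Ptprc. Cells without Tyrobp and Fcer1g could easily miss it, so these counts do not show that B or T cells were absent. Only 5 of 6 B cell and 6 of 7 T and NK list genes were in the count tables. Immune cells held a median of 2477 UMIs (984 to 6762) in the wild-type library and 1703 (919 to 5226) in the mutant library, and all other cells held 4028 and 2925. Shares of cells with a UMI are therefore also given at an equal depth of 1107 UMIs drawn from each immune cell, for which 9 wild-type and 28 mutant cells were too shallow. RNA of tendon cells was also read in immune cells. The 5 tendon genes Scx, Tnmd, Fmod, Col1a1 and Col1a2 made up 1.02% of the UMIs of wild-type and 0.200% of those of mutant immune cells, against 9.38% and 2.49% in all other cells. Type I collagen genes held over 2% of the UMIs in 8 wild-type and 2 mutant immune cells. Whether these UMIs came from free RNA, doublets or attached cells was not tested. The libraries shared 2 cell barcodes, neither of them an immune cell.

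Promoter sequence was at hand in RefSeq for 6 of the 10 genes, C1qb, C1qc, Mrc1, Cd163, Folr2 and H2-Aa. The promoters of C1qb and C1qc are printed because these genes lie side by side with C1qa on chromosome 4 and were read together in most cells that had any of them, and that of H2-Aa because MHC class II genes share known promoter boxes. Each runs from 250 bases before to 50 after the start of the gene in build GRCm38.p6, on the minus strand, 5′ to 3′. C1qb lies at chr4:136886151-136886450, C1qc at chr4:136892865-136893164 and H2-Aa at chr17:34287774-34288073. Capitals mark GAGGAA in the C1q genes, the core to which ETS factors such as PU.1 of myeloid cells bind, and in H2-Aa the palindrome TGACGTCA followed by the CCAAT box, all searched on both strands and therefore printed as TTCCTC or ATTGG where the match is on the other strand.
C1qb promoter: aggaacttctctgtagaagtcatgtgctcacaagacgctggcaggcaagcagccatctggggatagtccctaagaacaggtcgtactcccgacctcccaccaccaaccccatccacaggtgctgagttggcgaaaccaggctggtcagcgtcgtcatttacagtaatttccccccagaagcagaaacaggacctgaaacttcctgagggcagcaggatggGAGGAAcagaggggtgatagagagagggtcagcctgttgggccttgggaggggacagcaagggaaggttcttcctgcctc
C1qc promoter: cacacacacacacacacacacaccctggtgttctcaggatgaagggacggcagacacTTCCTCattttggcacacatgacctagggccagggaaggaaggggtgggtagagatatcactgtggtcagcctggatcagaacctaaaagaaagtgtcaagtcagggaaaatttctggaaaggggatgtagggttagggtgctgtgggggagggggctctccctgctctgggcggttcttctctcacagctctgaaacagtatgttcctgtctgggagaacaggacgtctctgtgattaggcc
H2-Aa promoter: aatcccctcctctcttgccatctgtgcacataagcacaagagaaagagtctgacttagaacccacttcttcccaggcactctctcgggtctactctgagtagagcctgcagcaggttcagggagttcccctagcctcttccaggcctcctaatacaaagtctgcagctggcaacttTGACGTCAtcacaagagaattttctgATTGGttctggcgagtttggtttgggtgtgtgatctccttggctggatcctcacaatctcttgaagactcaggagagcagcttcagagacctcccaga
In H2-Aa, CCAAT lay 48 bases and TGACGTCA 74 bases before the start, the order of the X and Y boxes known from class II promoters. CCAAT also lay 80 bases before the start of Mrc1 and 57 before that of Cd163, whereas TGACGTCA was in none of the other windows. Of 32851 promoters of this length, 37.4% held CCAAT, 1.79% held TGACGTCA and 28.3% held GAGGAA. The ETS letters lay 30 bases before the start of C1qb and 193 before that of C1qc, was found 3 times in the Mrc1 promoter, and was not among the letters of the Cd163, Folr2 and H2-Aa windows. A match of letters is a description and no evidence of binding.

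The C1q genes were read in most immune cells of both libraries, each in at least 94.7% of wild-type and 86.5% of mutant cells, and their level was similar in both. C1qa (chr4:136895917-136898803, minus strand, GRCm38) had 2543 UMIs in wild-type immune cells, or 4973 CPM (counts per 1000000 UMIs of the summed cells; exact Poisson interval 4782 to 5170), and 1823 UMIs or 5052 CPM (4823 to 5290) in mutant immune cells. C1qb (chr4:136880129-136886187) had 1977 UMIs or 3866 CPM in wild-type and 1633 or 4526 CPM in mutant cells. C1qc (chr4:136889804-136893065) had 1980 UMIs or 3872 CPM and 1472 or 4080 CPM. The ratio of mutant over wild-type CPM was 1.02 (exact conditional interval 0.956 to 1.08) for C1qa, 1.17 (1.10 to 1.25) for C1qb and 1.05 (0.984 to 1.13) for C1qc. The interval of C1qb lay above 1, and how many of all genes had an interval that left out 1 was not counted. The median over all 5051 genes with at least 20 UMIs in the immune cells was 0.03 on the log2 scale.

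C1q was far higher in immune cells than in the rest. Summed over the 3 genes, the level was 1148-fold (941 to 1414) that of all other wild-type cells and 1056-fold (868 to 1298) that of all other mutant cells. Red blood cells, taken as cells in which haemoglobin genes made up more than 50% of all UMIs, do not make C1q and served as a background: C1qa was seen in 1 of 88 such wild-type cells (median depth 5682 UMIs) and in 0 of 79 mutant ones (4451 UMIs), which allows a share of up to 3.80%. Across all other cells C1qa was seen in 1.56% and 0.748% of cells, C1qb in 1.24% and 0.872%, and C1qc in 32 and 29 cells. The proportions of the 3 chains in these scattered UMIs were near those of immune cells in the wild-type library, where C1qa made up 38.4% of 99 UMIs outside and 39.1% of 6500 UMIs inside the immune gate. In the mutant library the share of C1qa was 27.5% (19.1 to 37.2%) of 102 UMIs outside and 37.0% (35.6 to 38.4%) inside. A single mutant cell outside the gate, with 4 UMIs over the gate genes and 1046 UMIs in all, held 17 of the 102, and 8 mutant and 4 wild-type cells outside the gate held 3 or more.

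Per cell, the C1q sum ranged from 0 to 101 UMIs with a median of 30 in the wild-type library and from 0 to 111 with a median of 22 in the mutant library. Immune cells divided sharply by C1q. With 3 or more UMIs taken as positive, 181 wild-type cells were positive (95.8%), 8 held none, and no cell lay at 1 or 2 UMIs. In the mutant library 163 were positive (88.1%), 17 held none and 5 had 1 or 2. All 3 genes were read together in 178 of 189 wild-type cells (94.2%) and 158 of 185 mutant cells (85.4%). Every C1q-positive wild-type cell, and 162 of 163 in the mutant library, was also a macrophage marker cell. The mast, neutrophil and T or NK marker cells held no C1q UMI at all.

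**Figure D1:**
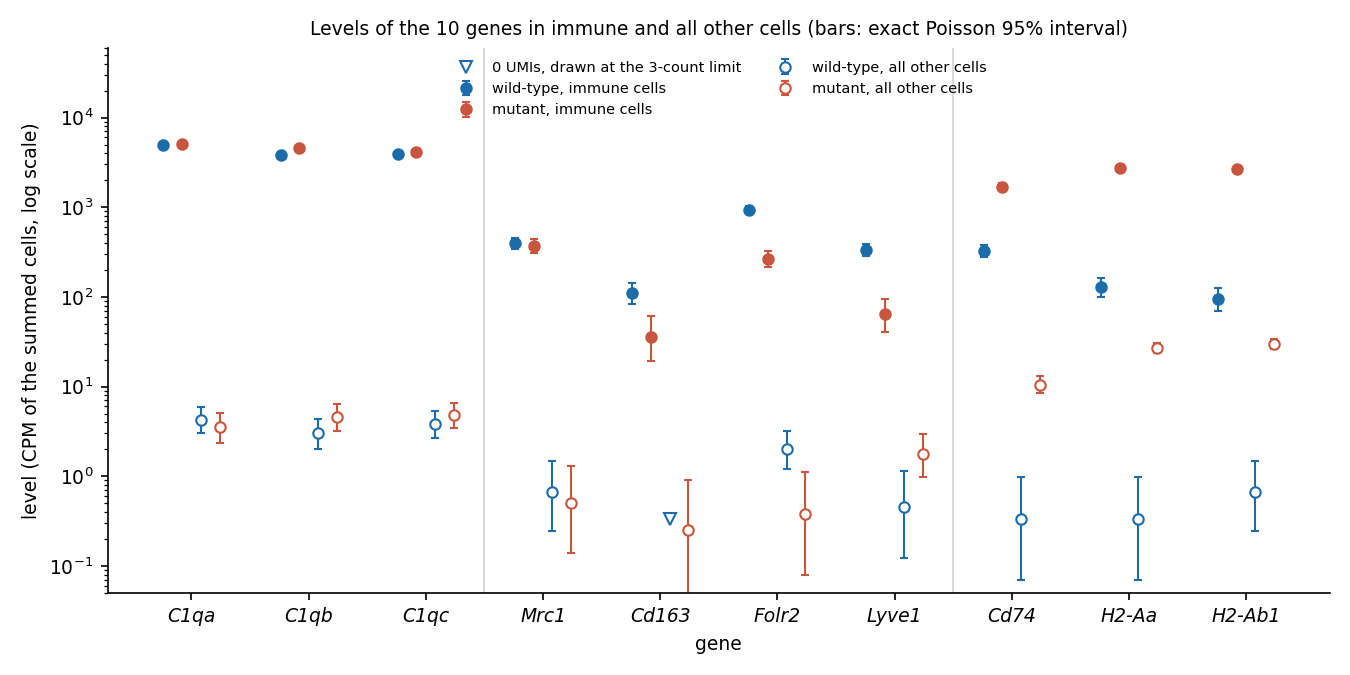
Level of each gene in CPM on a log axis, for immune cells (filled) and all other cells (open) of the wild-type (blue) and mutant (red) library, with exact Poisson 95% intervals; a triangle marks 0 UMIs, drawn at the limit that 3 counts set. The C1q genes lie at 3866 to 5052 CPM in both libraries, Folr2, Lyve1 and Cd163 lie lower in mutant immune cells, and the MHC class II genes lie higher there.

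Folr2, Lyve1 and Cd163 were lower in mutant than in wild-type immune cells, whereas Mrc1, as counted, had a ratio whose interval included 1. Folr2, the folate receptor (chr7:101839988-101857194, minus strand), had 481 UMIs or 941 CPM (858 to 1029) in wild-type and 96 UMIs or 266 CPM (216 to 325) in mutant immune cells, 3.54-fold lower (2.83 to 4.45). Lyve1, the hyaluronan receptor (chr7:110850607-110863239, minus strand), had 171 UMIs or 334 CPM (286 to 388) and 23 UMIs or 63.7 CPM (40.4 to 95.6), 5.25-fold lower (3.38 to 8.50). Cd163 (chr6:124304656-124330527, plus strand) rests on few molecules, 56 UMIs or 110 CPM and 13 UMIs or 36.0 CPM, 3.04-fold lower (1.64 to 6.06). For Mrc1 (chr2:14229392-14332057, plus strand), 202 UMIs or 395 CPM (342 to 453) stood beside 133 UMIs or 369 CPM (309 to 437), and the ratio of 0.933 had an interval of 0.744 to 1.17. Among the 10 genes 3 were at least 2-fold lower in mutant immune cells, against 4.83% of all genes tested, and 3 were at least 2-fold higher, against 6%.

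The same receptors were read in fewer mutant cells. Folr2 was seen in 136 wild-type cells (72.0%) and 57 mutant cells (30.8%), and at the shared depth of 1107 UMIs in 57.2% (49.6 to 64.6%) and 19.1% (13.3 to 26.1%). Lyve1 was seen in 75 (39.7%) and 17 cells (9.19%), and thinned in 25.0% (18.9 to 32.0%) and 5.10% (2.23 to 9.79%). Neither pair of intervals overlaps at equal depth, and how many of all genes would part in this way was not counted. Cd163 was seen in 16.9% and 6.49% of cells, and thinned in 8.89% (5.17 to 14.03%) and 3.82% (1.42 to 8.13%), where the intervals do overlap. Mrc1 was seen in 56.6% and 41.6% of cells, but thinned in 32.8% (26.0 to 40.2%) and 27.4% (20.6 to 35.1%), so that the gap in shares was smaller at equal depth. Its level did not follow this, since the mutant over wild-type ratio of CPM was 0.712 in thinned cells, beside 0.933 as counted.

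**Figure D2:**
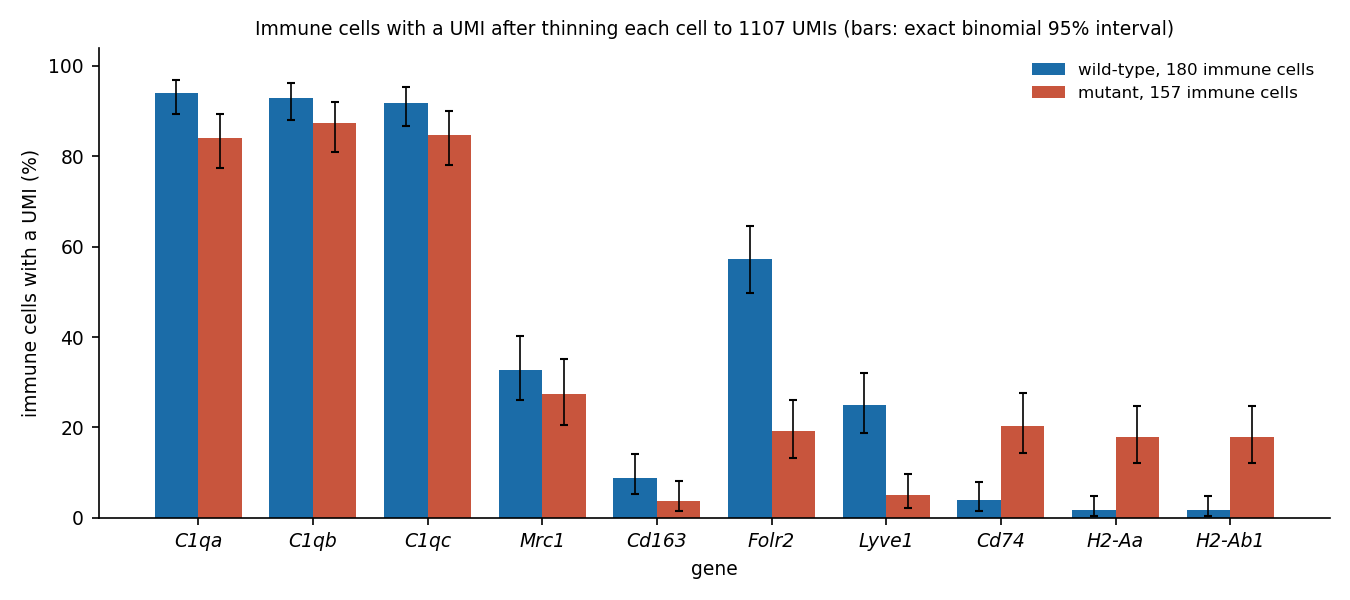
Share of immune cells with at least 1 UMI of each gene after every cell was thinned to 1107 UMIs, in 180 wild-type (blue) and 157 mutant (red) cells, with exact binomial 95% intervals. Folr2 and Lyve1 are lower in the mutant library (19.1% and 5.10%) than in the wild-type library (57.2% and 25.0%). Mrc1 is at 27.4% in the mutant and 32.8% in the wild-type library, and the 3 MHC class II genes are higher in the mutant library.

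In the wild-type library the receptors were spread over most immune cells and often read together. At least 1 receptor was seen in 163 wild-type cells (86.2%) and 105 mutant cells (56.8%), at least 2 in 117 (61.9%) and 46 (24.9%), and all 4 in 16 and 0. Folr2 or Lyve1 was seen in 152 wild-type cells (80.4%) and 64 mutant cells (34.6%). Of the 75 wild-type cells with Lyve1, 59 also held Folr2 (78.7%), beside 67.5% of the cells without Lyve1. Of the 17 mutant cells with Lyve1, 10 held Folr2 (58.8%), beside 28.0% of the rest. Of the 32 wild-type cells with Cd163, 30 held Folr2 (93.8%), and of 12 in the mutant library 5 did (41.7%). Cells with more UMIs show more genes of any kind, and this was not separated from the pairing.

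Outside the immune gate few receptor UMIs were read. Folr2 was at 2.01 CPM in wild-type and 0.380 CPM in mutant other cells, and Mrc1 at 0.671 and 0.507 CPM. Cd163 had 0 UMIs in 2175 wild-type other cells, which allows up to 0.138% of cells with a UMI and sets no limit on cells that express it, and its level in immune cells was at least 326-fold higher than the limit that 3 counts set for those cells. Lyve1 was the exception among mutant cells. One cell of the endothelial gate (3 or more UMIs over Pecam1, Cdh5, Emcn, Kdr, Cldn5 and Egfl7) held 9 of the 14 Lyve1 UMIs outside the immune gate, together with 4 UMIs over a list of lymphatic endothelial genes, 13 over the endothelial list, and none of Mrc1 or Folr2. With it, the endothelial cells of the mutant library reached 66.5 CPM of Lyve1 (30.4 to 126), not distinguishable from the 63.7 CPM of immune cells, whereas the 22 wild-type endothelial cells had no Lyve1 UMI, which allows up to 13.6% of cells with one. Each of the 10 genes was otherwise highest in the immune cells of its library. All 10 were at least 10-fold higher in immune than other cells of both libraries, against 3.15% of all genes (wild-type) and 2.87% (mutant). These shares cover genes with at least 20 UMIs, which mutant Cd163 did not reach, with 13 UMIs in immune and 2 in other cells. The immune cells were defined by 4 other immune genes, and the 10 genes were chosen as genes of such cells.

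MHC class II genes were read in a small minority of immune cells, and in many more of them in the mutant library. H2-Aa (chr17:34282744-34287823, minus strand) had 66 UMIs or 129 CPM (99.8 to 164) in wild-type and 996 UMIs or 2760 CPM (2592 to 2937) in mutant immune cells, a 21.4-fold difference (16.7 to 27.9). H2-Ab1 (chr17:34257689-34269419, plus strand) had 48 UMIs or 93.9 CPM and 960 UMIs or 2661 CPM, a 28.3-fold difference (21.2 to 38.7). Cd74, the invariant chain, had 166 UMIs or 325 CPM and 613 UMIs or 1699 CPM, a 5.23-fold difference (4.40 to 6.25). These folds are sums over few cells: in the wild-type library 2 cells, with 130 and 127 UMIs, held 91.8% of the 280 class II UMIs, whereas in the mutant library the 2 highest cells held 19.6% of 2569.

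Counted by cells, 3 of 189 wild-type immune cells (1.59%, 0.329 to 4.57%) and 31 of 185 mutant immune cells (16.8%, 11.7 to 22.9%) had 3 or more UMIs over the 3 genes and are called MHC class II-positive below. The gap was as wide at equal depth, with 1.67% of wild-type and 18.5% of mutant cells. Nearly all positive mutant cells were far above the minimum: 27 held 10 or more class II UMIs, the highest 287, and 3 held 3 or 4. The third positive wild-type cell held 3. Below the minimum, 18 wild-type cells had 1 or 2 UMIs, and each of the 18 held Cd74 alone. In the mutant library 4 cells had 1 or 2 UMIs, and Cd74 was the only class II gene read in 5 cells in all. H2-Aa and H2-Ab1 were read together, in 3 of 3 wild-type cells with H2-Aa and 28 of 30 mutant cells, and no immune cell had either without Cd74.

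The make-up of the class II message also differed. In the 2 wild-type cells with 10 or more class II UMIs, Cd74 was 56.2% and 56.7% of these UMIs. In the 27 such mutant cells it ranged from 12.5 to 45.5% with a median of 22.96%, so that both wild-type cells lay above every mutant cell. With 2 wild-type cells from 1 pool the comparison goes no further. H2-Aa made up 25.3% and 38.8% of the class II UMIs of these cells in the wild-type and mutant library, and H2-Ab1 18.3% and 37.6%.

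Outside the immune gate, class II UMIs were rare in the wild-type library, 12 over 10 cells with no cell above 2. The mutant library had 532 over 80 cells, and 18 of these cells held 3 or more. H2-Ab1 was seen in 47 of the mutant cells outside the gate, H2-Aa in 40 and Cd74 in 16, so some held H2-Ab1 or H2-Aa without Cd74. Of the 532 UMIs, 382 lay in 2 cells with 206 and 176. These 2 cells held 2 and 4 UMIs over the gate genes, of 4485 and 3748 UMIs in all, and so fell outside the immune gate. The median over the gate genes was 17 in mutant immune cells. Both held no C1q and no B cell list UMI, and they had 2 and 0 UMIs over the dendritic list. The next highest cell held 9 class II UMIs. In haemoglobin-rich cells no class II UMI was seen in either library, in 88 and 79 cells.

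C1q and MHC class II divided the immune cells of the mutant library into 4 classes. With 3 UMIs as the minimum for either sum, 143 mutant cells were positive for C1q alone, 20 for both, 11 for class II alone and 11 for neither. In the wild-type library the counts were 178, 3, 0 and 8. The 11 mutant cells with class II alone were no shallow cells, with a median of 3262 UMIs beside 1580 for C1q alone. Between them they held 6 C1q UMIs, no more than 2 in a cell. Of the 31 positive mutant cells, 28 were macrophage marker cells, and all 3 cells with 5 or more UMIs over the dendritic list were among the 31. The macrophage label asks for 3 UMIs and its genes are more abundant, so these counts do not weigh the cell types against each other. Of the macrophage list, Aif1 was read in 22 of the 31 cells, Fcgr3 in 20, Csf1r in 15, Pf4 in 8 and Ms4a7 in 3. Cd209a, a lectin of monocyte-derived and conventional dendritic cells, had 16 UMIs in the mutant immune cells, all of them in 5 class II-positive cells, and none in wild-type immune cells. No gene of the dendritic list reached the 20 UMIs asked for a ratio, and not all went this way. Flt3 and Itgax, at 5 UMIs each, and Xcr1 and Clec9a, at 2 each, were also read only in positive cells. Fscn1 had 0 UMIs in the positive and 7 in the other mutant cells. Wdfy4 had 13 UMIs in wild-type and 4 in mutant immune cells, though within the mutant library 3 of the 4 lay in positive cells.

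**Figure D3:**
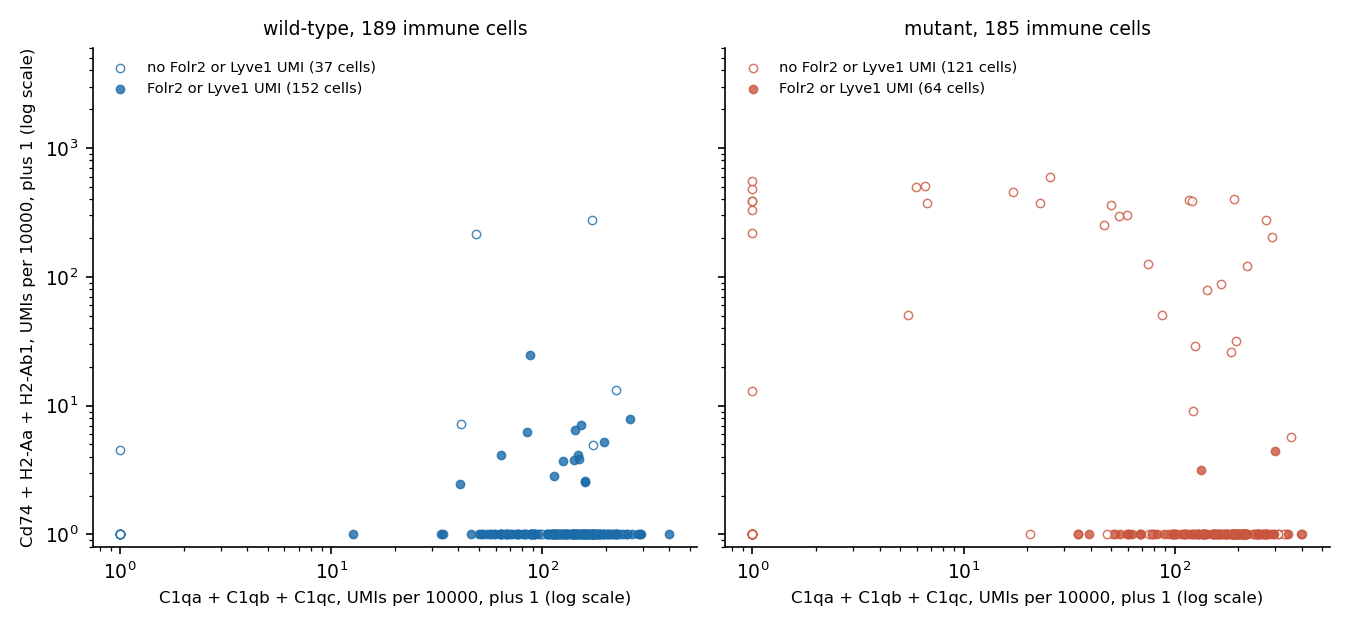
Each point is 1 immune cell, placed by its C1q UMIs (horizontal) and MHC class II UMIs (vertical) per 10000 UMIs plus 1, on log axes, for 189 wild-type cells (left) and 185 mutant cells (right); filled points held a Folr2 or Lyve1 UMI. The mutant panel has 31 class II-positive cells, 20 of them C1q-positive and 11 below 3 C1q UMIs, and all of them are open points.

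Few receptor UMIs were read in the class II-positive mutant cells. Folr2 had 0 UMIs in all 31 cells, which allows up to 9.68% of cells with a UMI, beside 96 UMIs in 57 of the 154 other mutant immune cells (37.0%). Lyve1 also had 0 UMIs in the 31 cells, beside 23 UMIs in 17 of the 154 others (11.0%). The ratio of its CPM was 0 with an interval up to 0.591. This interval counts UMIs as independent, although the 23 UMIs lay in 17 cells. By share of cells, the exact binomial interval for 0 of 31 reached 11.2%, which includes the 11.0%. The limit of 3 counts, 9.68%, lay just below the 11.0%. The shares of cells with Lyve1 therefore did not separate the positive cells from the others. The positive cells were no shallower, with a median of 2246 UMIs beside 1576. Mrc1 was seen in 4 of 31 (12.9%, 3.63 to 29.8%) and in 73 of 154 (47.4%, 39.3 to 55.6%), and Cd163 in 1 of 31 and 11 of 154. Summed, the 4 receptors stood at 85.3 CPM (34.3 to 176) in the positive and 926 CPM (816 to 1046) in the other mutant cells. The 5 positive cells with a receptor UMI were all among the 20 that also carried C1q.

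C1q was lower in the same cells, and its chains stood in another proportion. The C1q sum was 6264 CPM (5734 to 6830) in the class II-positive and 15834 CPM (15370 to 16308) in the other mutant immune cells. The 11 positive cells below 3 C1q UMIs, at 175 CPM, carried much of this gap, and among C1q-positive cells the sums were 10637 CPM with and 16862 CPM without class II. In positive cells C1qc contributed 97 of 514 C1q UMIs, or 18.9% (15.6 to 22.5%), and elsewhere in the mutant immune cells 1375 of 4414, or 31.2% (29.8 to 32.5%). C1qb made up 42.2% (37.9 to 46.6%) and 32.1% (30.7 to 33.5%), and C1qa was near equal at 38.9% and 36.8%. Over single cells with 10 or more C1q UMIs, the share of C1qc had a median of 17.2% in 15 positive cells (6.25 to 33.3%) and 30.0% in 135 others (10.5 to 70.0%), so that the ranges overlap widely. In the 3 wild-type positive cells C1qc was 34.5% (26.0 to 43.7%) of 119 C1q UMIs, beside 30.4% in the rest.

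**Figure D4:**
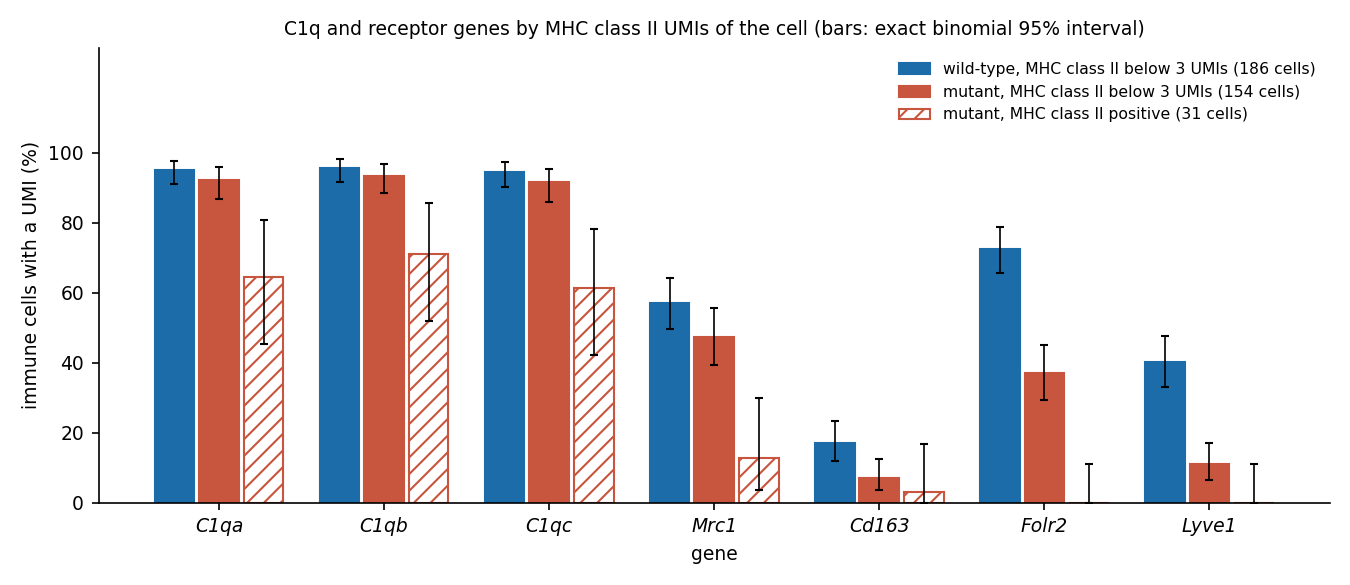
Share of immune cells with at least 1 UMI of each C1q and receptor gene, by the MHC class II UMIs of the cell, for 186 wild-type and 154 mutant cells below 3 class II UMIs (filled) and the 31 positive mutant cells (hatched), with exact binomial 95% intervals. Folr2 is at 72.6% in wild-type and 37.0% in mutant cells below the minimum and at 0 in the positive cells; C1q genes are seen in over 90% of the cells below the minimum in both libraries.

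Folr2 and Lyve1 were also lower in mutant cells outside the class II-positive class. In cells with fewer than 3 class II UMIs, a split chosen after the data had been seen, Folr2 was seen in 135 of 186 wild-type (72.6%) and 57 of 154 mutant cells (37.0%), and Lyve1 in 75 (40.3%) and 17 (11.0%). Thinned to 1107 UMIs, the shares were 57.6% (49.99 to 65.0%) and 23.4% (16.4 to 31.7%) for Folr2, and 25.4% (19.2 to 32.5%) and 6.25% (2.74 to 11.9%) for Lyve1. The ratio of mutant over wild-type CPM in these cells was 0.361 for Folr2, 0.241 for Lyve1, 0.384 for Cd163 and 1.13 for Mrc1. The ratio of the C1q sum was 1.24 in these cells, up from 1.07 (1.04 to 1.12) in all immune cells.

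Other genes of resident macrophages stood lower in mutant immune cells together with the receptors. Of 10 measured genes of a resident macrophage list, 4 were at least 2-fold lower and 1 was higher, beside 4.83% and 6% of all genes, with a median log2 ratio of -0.92. Those lower were F13a1, the coagulation factor XIII A chain (952 and 338 CPM, 2.82-fold), Fcna, a ficolin of the lectin complement pathway (170 and 55.4 CPM, 3.07-fold), the galactose lectin Clec10a (135 and 52.7 CPM, 2.56-fold) and the chemokine Ccl24 (577 and 233 CPM, 2.48-fold). The remaining 5, Cbr2, Stab1, Gas6, Sepp1 and Maf, lay between 1.58-fold and 1.95-fold lower. The exception was Ccl8, a chemokine, at 43.0 CPM in wild-type and 227 CPM in mutant cells, 5.28-fold higher (3.27 to 8.88). The general macrophage genes were mixed. Of 11 measured, 1 was at least 2-fold higher, Aif1 (375 and 909 CPM), and none was lower, beside 6% and 4.83% of all genes, with a median of -0.01. Pf4, a chemokine of platelets and macrophages, was 1.66-fold lower (ratio 0.603, 0.571 to 0.637), whereas Ms4a7 had a ratio of 1.97, Fcgr1 of 1.76 and Cx3cr1 of 1.54. Csf1r, the receptor for the macrophage growth factor CSF1, stood at 943 and 895 CPM, and Adgre1, encoding F4/80, at 241 and 238 CPM.

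Several other genes of class II presentation were higher too. Of 8 measured, 5 were at least 2-fold higher in mutant immune cells and none lower, beside 6% and 4.83% of all genes, with a median log2 ratio of 1.71. H2-Eb1, the beta chain of I-E, had 34 and 744 UMIs (66.5 and 2062 CPM, ratio 31.0, 22.0 to 45.1). H2-DMa and H2-DMb1, the chains of the editor that loads peptides, stood 5.27-fold (3.87 to 7.28) and 6.59-fold (4.03 to 11.3) higher. H2-DMb2 stood 7.09-fold higher, though reads of H2-DMb1 and H2-DMb2, near copies of each other, may have been split between them. Ctss, the cathepsin that degrades the invariant chain, was 1042 and 2142 CPM, 2.06-fold higher (1.84 to 2.30). In the mutant library the 31 class II-positive cells held 743 of 744 UMIs of H2-Eb1, 168 of 197 of H2-DMa and 90 of 93 of H2-DMb1. Of Ctss they held 236 of 773. Ifi30, a lysosomal thiol reductase, was 1.14-fold (0.892 to 1.45), and Cd86, a costimulatory ligand, stood at 153 and 103 CPM. Of 6 measured MHC class I genes, 1 was at least 2-fold higher, Tap2 at 9 and 13 UMIs (ratio 2.05, 0.810 to 5.43), and none was lower, with a median log2 ratio of 0.02. B2m stood at 2323 and 2264 CPM and H2-K1 at 422 and 446 CPM.

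**Figure D5:**
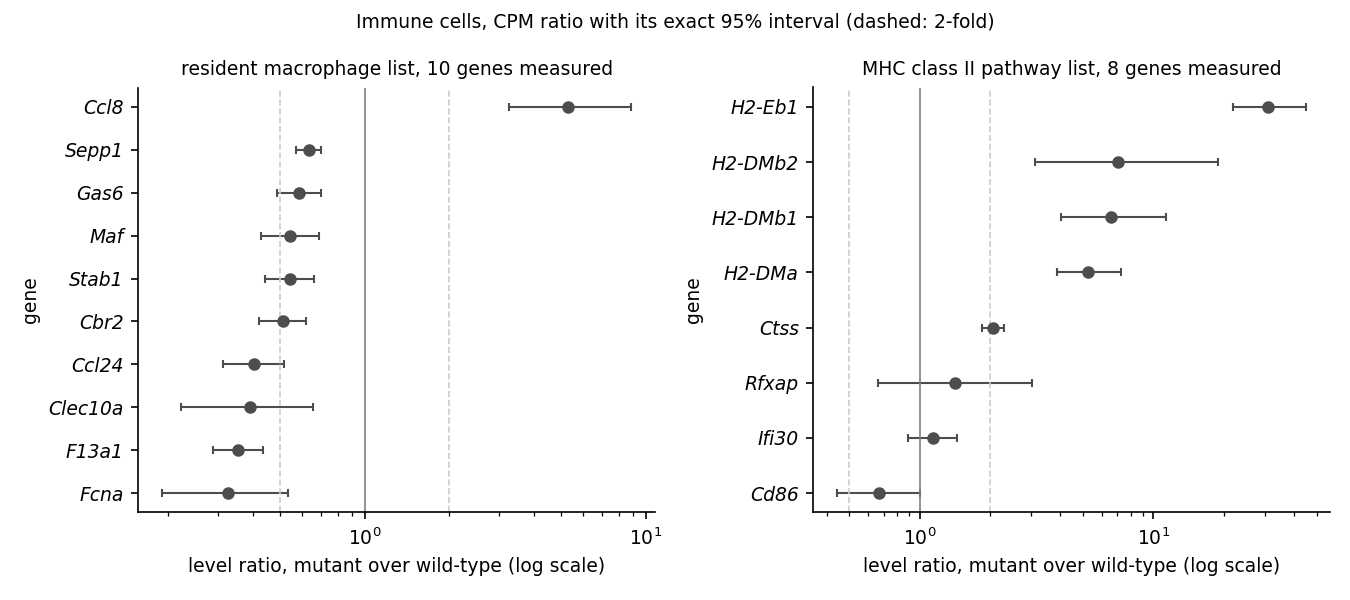
Ratio of mutant over wild-type CPM in immune cells (log axis, exact 95% intervals) for the measured genes of the resident macrophage list (left, 10 genes) and the MHC class II pathway list (right, 8 genes), none of them among the 10 genes of this report; dashed lines mark 2-fold. On the left 9 of 10 genes lie below 1 and Ccl8 above it at 5.28; on the right H2-Eb1 lies highest at 31.0.

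Within the mutant library most measured resident macrophage genes were lower in the class II-positive cells. Of 9 list genes with at least 20 UMIs, all 9 were at least 2-fold lower in the 31 positive cells than in the other 154, against 15.7% of all genes tested, with a median log2 ratio of -4.04 beside -0.04 for all 2645 genes. The minimum was asked of both groups together, so a gene could pass it through the other cells alone. Fcna did so with 0 and 20 UMIs, and the interval of its ratio reached 0.688. F13a1 had 1 UMI in the positive and 121 in the other cells, Cbr2 0 and 150, Gas6 1 and 172, and Ccl8 0 and 82. Clec10a, below that minimum in these cells, had 5 and 14 UMIs (60.9 and 50.2 CPM, ratio 1.21, 0.342 to 3.56). Of the 6 C1q and receptor genes with at least 20 UMIs here, 5 were at least 2-fold lower, and C1qb was 1.92-fold lower. Lyve1, among the 5, passed the minimum with 0 and 23 UMIs, and the interval of its ratio reached 0.591. Of the macrophage list 5 of 11 were at least 2-fold lower, Pf4 (475 and 6457 CPM, 13.6-fold) and Ms4a7 (9 and 407 UMIs, 13.3-fold) among them, whereas Lyz2 was 1.65-fold and Adgre1 1.65-fold lower. In the other direction, against 6.65% of all genes, stood 5 of 7 class II pathway genes. The cells had been split by Cd74, H2-Aa and H2-Ab1 of the same pathway, so this count is no independent result. Of 3 measured monocyte list genes 1 was at least 2-fold higher in the positive cells, Ccr2. Fn1 had a ratio of 0.698 (0.497 to 0.962) and Plac8 of 1.59 (0.777 to 3.08), and Ly6c2, too low to be measured, had 0 and 6 UMIs. Ccr2, the chemokine receptor of blood monocytes, had 43 UMIs in 18 of the 31 positive cells and 22 in 11 of the other 154 (524 and 78.9 CPM, ratio 6.64, 3.89 to 11.7), and in all immune cells 19.6 CPM in the wild-type and 180 CPM in the mutant library (9.21, 4.70 to 20.1).

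Most other complement genes stayed within 2-fold, whereas some scavenger receptor genes passed it in either direction. Of 7 measured complement genes without C1q, 1 was at least 2-fold higher in mutant immune cells and none lower, beside 6% and 4.83% of all genes, with a median log2 ratio of 0.16. It was C4b, at 8 and 16 UMIs. Of 7 scavenger and endocytic receptors beyond the 4 described above, 2 were at least 2-fold lower, beside 4.83% of all genes. These were Cd36 (156 and 52.7 CPM) and Cd209f (68.4 and 30.5 CPM). At least 2-fold higher was 1, Clec4n (198 and 477 CPM), beside 6% of all genes. The median of these 7 was -0.56, and Stab1 (0.542), Colec12 (0.669) and Msr1 (0.678) also had ratios below 1.

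Across immune cells the genes whose scaled counts followed the C1q sum most closely, by the lower Pearson r of both libraries among 2299 genes, were Pf4 (0.72 over 189 wild-type and 0.64 over 185 mutant cells), Lgmn (0.59 and 0.69), Grn (0.45 and 0.50), Sepp1 (0.47 and 0.42) and Fth1 (0.44 and 0.40). For the receptor sum they were Pf4 (0.53 and 0.55), F13a1 (0.43 and 0.45), Fcgrt (0.42 and 0.45), Cbr2 (0.41 and 0.43) and Lgmn (0.43 and 0.38). For the class II sum H2-DMa led among these genes (0.42 and 0.75), followed by Cd52 (0.39 and 0.53), Ctsh (0.31 and 0.43), Tmem176a (0.25 and 0.32) and Sdf2l1 (0.24 and 0.31). Pf4 thus stood first for both C1q and the receptors. Points of 1 library share its depth and its free RNA. The low values for the class II sum in the wild-type library rest on 21 cells with a class II UMI, 18 of them with Cd74 alone.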

How the data were processed

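Single-cell libraries (10x Genomics Chromium Single Cell 3′ kit) were made from limb tendons of P7 pups, 1 per genotype. UMIs were counted by the authors with Cell Ranger on reads aligned to mm10, at default settings, and the submitters' processing notes name version 1.2.0. The deposited counts are whole UMI counts per gene and cell barcode, not normalized, for barcodes kept by total UMI count. They summed to 9451606 UMIs over 2364 wild-type cells and 8250248 over 2592 mutant cells. All deposited barcodes were used. Scrublet (scanpy 1.11.5, expected rate 2%) called 26 and 8 cells as doublets, which stayed in. Among them were 4 immune cells of each library and none positive for MHC class II.

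The 10 genes and the gene lists were chosen with earlier results of these data known. Named are all 10 genes, the gate genes, list genes that the account of a member turns on, and the 5 genes most like each gene group by Pearson r of log2(1 + UMIs per 10000), among genes seen in at least 10% of immune cells of each library. Cd209a, Ccr2 and the examples from the lists were chosen after their values were seen. Counts were summed over cells and scaled to CPM. Ratios have exact conditional, levels exact Poisson and shares exact binomial (Clopper-Pearson) 95% intervals (SciPy 1.17.1, Python 3.11.15), which cover counting error only. Genes entered counts of 2-fold differences with at least 20 UMIs in the cells compared, with 0.5 UMIs added on the log2 scale. A share of 0 is limited by 3 counts. Thinning drew 1107 UMIs per cell, the 10th percentile of immune cells, with seed 1. Gene positions are GENCODE coordinates on GRCm38, and promoters are RefSeq sequences on GRCm38.p6. The code was tested on simulated counts. Other gates, minimum counts, cell filters and scalings were tried as alternatives.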

Additional observations from a re-analysis of the deposited data

How the results depend on the processing

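Of 463 values recomputed under alternative settings, 409 stayed within their counting interval (counts of genes: within 1.5 times) and 54 moved. A reversal was counted only for ratios whose own interval excluded 1, and none of these reversed. Levels, shares and counts of genes could not get this label. Ratios near 1 could cross it without being counted, as Mrc1 did at 0.712 (thinned cells) to 1.13 (cells low for class II). A gate of 10 UMIs put 5.98% of mutant cells in the immune class and lowered the level in immune over other cells to 292-fold (wild-type) and 223-fold (mutant) for C1q, 212-fold and 117-fold for the receptors, and 71.2-fold for mutant MHC class II, since cells with 5 to 9 UMIs over the gate genes then count as background. A gate of 3 UMIs gave 1412-fold for mutant C1q and 166-fold for mutant class II. Averaging scaled cells gave 720-fold and 78.9-fold for these, and mutant over wild-type ratios of 1.13 for C1q and 14.9 for class II. With positive cells defined at 10 UMIs, 90.5% of wild-type and 81.1% of mutant immune cells were C1q-positive, and at 1 UMI 11.1% of wild-type immune cells were class II-positive, nearly all by Cd74 alone. With at least 50 UMIs asked of a gene, 0 complement genes were 2-fold higher. Settings added after the data had been seen gave, for thinned cells, ratios of 17.6 for class II and 0.334 for the receptors, in cells low for class II 1.24 for C1q and 0.511 for the receptors, and 5.96% immune cells in the wild-type library with every cell thinned to 900 UMIs. The ratio of Folr2 ranged from 0.236 to 0.361, of Lyve1 from 0.159 to 0.241, of Cd163 from 0.244 to 0.448, of Mrc1 from 0.712 to 1.13, of Cd74 from 4.84 to 8.28, of H2-Aa from 19.6 to 26.3 and of H2-Ab1 from 26.0 to 32.2 over all settings. No paired analysis was possible because each genotype had 1 library. Depth limits Cd163, at 13 mutant UMIs, and every statement on wild-type MHC class II, which rests on 3 positive cells and on 18 cells with Cd74 alone. No other pups were measured, so none of the differences between the libraries has a replicate check.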
